A study of Homo sapiens with 9 samples.

Results

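The sites described here are the positions on the transcript of APOB that 3 deposited lists of m6A sites from HepG2 cells contain. They were taken by position: every listed site on the minus strand of chromosome 2 between 21224301 and 21266945 in build hg19, an interval of 42645 nt that the choice of members names as APOB. The interval held 6 of the 482 sites listed for cells with the first shRNA against SETD2 (shSETD2#1, hairpin 1 below), 5 of the 697 sites listed for the second (shSETD2#2, hairpin 2) and 16 of the 3755 sites listed for a non-specific control shRNA. Together these were 17 distinct positions. APOB was chosen by its sites in these lists, with their number, scores and recurrence in view, so these are given as descriptions without a test.

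APOB encodes apolipoprotein B, the large structural protein on which hepatocytes build very low density lipoprotein particles, and which stays on the particle as it becomes low density lipoprotein, the ligand of the LDL receptor. Its mRNA is among the longest of the abundant liver messages, and one very long internal exon towards its 3′ end holds much of the coding sequence. N6-methyladenosine (m6A) is the most common internal modification of mRNA and is placed by a nuclear complex around METTL3 and METTL14, mostly in long internal exons and around stop codons. SETD2 is the histone methyltransferase that trimethylates a lysine of histone H3 along transcribed genes. APOB mRNA is also the classical substrate of C-to-U editing: in the intestine the enzyme APOBEC1 changes a glutamine codon into a stop codon. A C-to-T change in a read can arise from editing as well as from the assay, and whether any listed site is the edited base was not tested.

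All cells were HepG2, an established line from a human hepatocellular carcinoma, infected with lentivirus carrying the hairpin and selected with puromycin. The series calls the assay miCLIP, which reads m6A from changes left by a crosslinked antibody, while the sample titles say m6A-seq and the protocol describes antibody enrichment of sonicated mRNA with no crosslinking step. Each shRNA had 3 labelled replicates but 1 list, so no value has a replicate error, and tests of reads compare pooled lists and not conditions. No transcript levels were analysed here, so the SETD2 knockdown and the amount of APOB mRNA are not shown by these values.

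Each list gives a whole-number score per site, with no stated meaning and at least 3 in every list. The running numbers in the site names order all 482, 697 and 3755 sites exactly by a binomial tail probability, if the score is the number of reads over the site and the background rate is 1.43%, 1.00% and 1.57% for hairpin 1, hairpin 2 and control. Over all rates scanned, from 0.2% to 3%, the median number of sites in order was 73, 112 and 153. That order fixes the number of C-to-T reads at each of the APOB entries, 27 in all. Scores are therefore read as reads, and C-to-T reads and shares are called reconstructed, since no column of the files holds them. Intervals are 95% exact Clopper-Pearson intervals; they cover counting error only, since reads were not tagged by molecule as far as the labels say.

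The listed APOB sites lay towards the 3′ end of the gene. All 6 sites of hairpin 1, 4 of 5 sites of hairpin 2 and 15 of 16 control sites lay in the last 12000 nt of the interval, in a stretch that ran over 9363 nt with either hairpin and 11392 nt in control. The site nearest to the 3′ end, at 21224714, lay 413 nt inside the interval and was in all 3 lists. Outside that stretch stood a hairpin 2 site at 21242746 and a control site at 21255420, each in that list alone. Gaps between neighbouring control sites had a median of 479 nt and ran from 83 to 19314 nt. The nearest listed minus-strand positions beyond the interval were 431 kb past its 3′ end, with a control score of 13, and 2995 kb past its 5′ end, with a control score of 21; both were in the control list alone. The plus strand held 0 sites within the interval in the 3 lists.

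**Figure D1:**
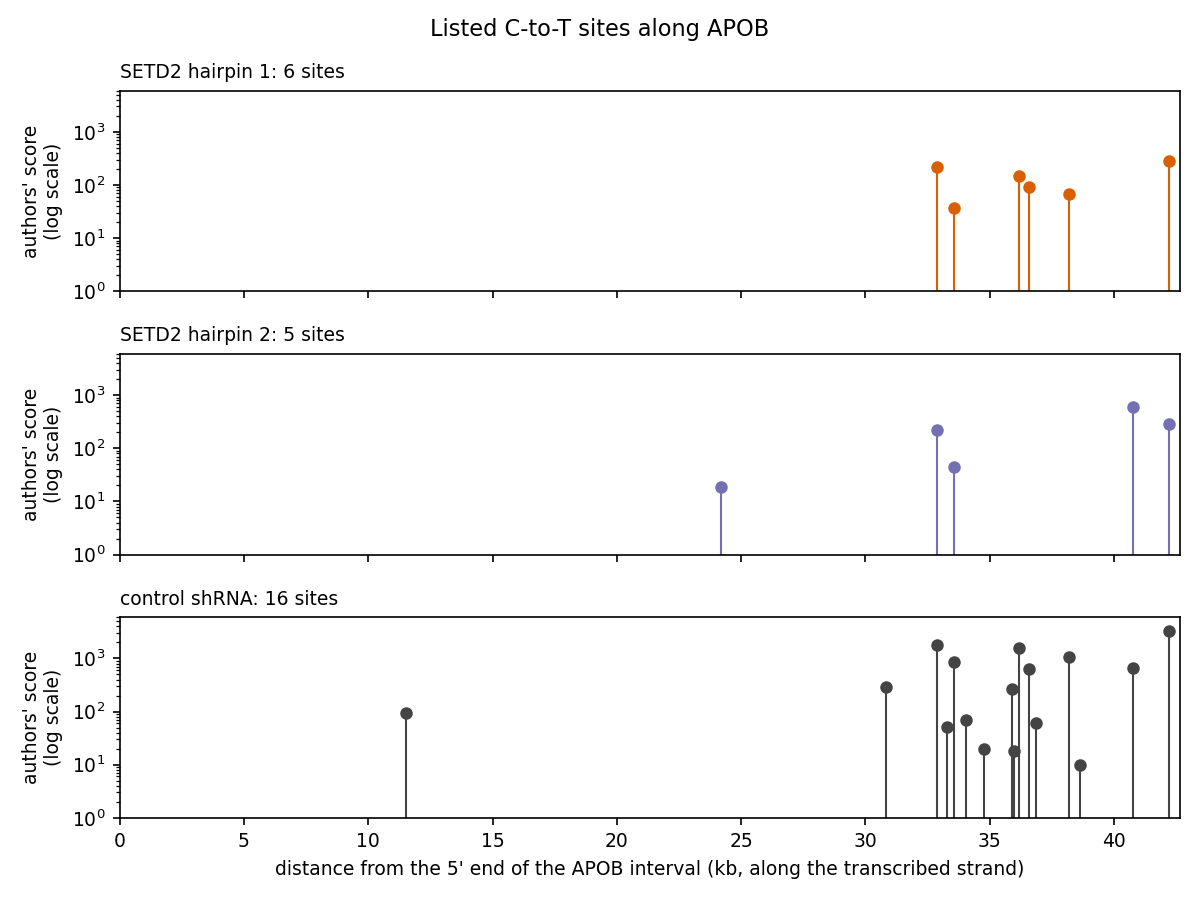
Listed sites along APOB by distance from the 5′ end of the interval (kb, horizontal axis) and the authors' score (vertical axis, log scale), for hairpin 1 (top), hairpin 2 (middle) and control (bottom). The sites crowd at the right, 3′ side in each list, with 6, 5 and 16 sites.

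Positions in exons, introns, the coding sequence or the untranslated regions were not assigned, and the bases around the sites and m6A motifs were not read, since no hg19 sequence or annotation was used here. The listed positions are also not known to be the modified adenosine itself, because the lists give the place of a C-to-T change.

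APOB sites were deeply covered. Their scores were 37, 69, 92, 148, 216 and 289 with hairpin 1, with a median of 120 against 11 over all sites of that list. With hairpin 2 they were 19, 44, 219, 291 and 605, with a median of 219 against 15 over all sites. In control the lowest was 10, the median 276.5 and the highest 3331, where the median over all sites was 14. APOB made up 1.24% of the sites with hairpin 1 (interval 0.458 to 2.69), 0.717% with hairpin 2 (0.233 to 1.67) and 0.426% in control (0.244 to 0.691). Of the score summed over all sites, APOB held 3.63% with hairpin 1, 2.28% with hairpin 2 and 4.22% in control. The point value was thus higher than in control with each hairpin by sites, and lower with each by summed score.

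Same-strand positions of the 3 lists were also joined into groups wherever gaps were at most 5000 nt, with chromosomes M and Y left out. Of 3695 such groups, 1 held 10 or more control sites: the APOB stretch from 21224714 to 21236106, with 15. Outside APOB the highest number of control sites in a group was 6. Gaps were genomic, so sites of 1 transcript that lay further apart fell into separate groups, as did the APOB sites at 21242746 and 21255420. APOB was also chosen with its number of sites in view. The groups nearest to APOB, by the summed difference in site number over the 3 lists, lay on plus strands, on chromosome 1 from 564545 to 570153, on chromosome 7 from 94294669 to 94298635 and on chromosome 2 from 20647453 to 20647968. The first held 6 sites with hairpin 1, 4 with hairpin 2 and 6 in control, the next held 3, 2 and 5, and the last held 2, 3 and 5. The summed differences from APOB were 11, 17 and 17 sites.

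Fewer APOB sites were listed with either hairpin, and those listed again were among the deep ones. All 6 hairpin 1 sites and 4 of 5 hairpin 2 sites were also control sites. Thus 6 of 16 control sites were listed again with hairpin 1, where 5.99% of all control sites were, and 4 of 16 with hairpin 2, where 6.50% of all control sites were. The positions 21224714, 21233389 and 21234077 were in all 3 lists (3 of 16, beside 2.21% of all control sites). Those at 21228739, 21230360 and 21230785 were shared by hairpin 1 and control alone, and the one at 21226173 by hairpin 2 and control alone. Positions outside the control list made up 53.3% of all hairpin 1 sites and 0 of 6 at APOB. The hairpin 1 sites at APOB were deeper, with a median score of 120 against 11 over the list, and the part of depth was not tested. A position that is not listed may lack reads or lack changed reads, and the lists do not say which.

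Control score separated the APOB sites that were listed again with at least 1 hairpin from the others. The 7 control sites listed with at least 1 hairpin had control scores of 635 to 3331 and 9 to 78 C-to-T reads. The 9 sites listed in control alone had scores of 10 to 292 and 1 to 5 C-to-T reads, so neither measure overlapped. For each hairpin by itself the control scores did overlap. The lowest score listed again was 635 with hairpin 1 and 657 with hairpin 2, and the highest not listed again was 657 and 1579. C-to-T reads overlapped with hairpin 1 (from 9 listed again, up to 32 not) but not with hairpin 2 (from 32, up to 27). Depth moved with recurrence over all sites too: 6.55% of all control sites with a score under 100 were listed with at least 1 hairpin, 35.3% of those with 100 to 999 and 88.0% of those with 1000 or more. At APOB these numbers were 0 of 7, 3 of 5 and 4 of 4. The 25 control sites with 1000 or more include those at APOB and on chromosome M. Of the 11 others, 8 (72.7%) were listed with at least 1 hairpin. Taken singly, each hairpin listed 0 of the 7 shallow APOB sites (3.26% of all such control sites with hairpin 1, 4.20% with hairpin 2) and 2 of the 5 in the middle range (23.0% and 20.9%). By C-to-T reads, 48.8% of all control sites with 9 or more were listed again with at least 1 hairpin, and 6.30% of those with 5 or fewer. The part of depth in the recurrence of APOB sites was not tested.

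**Figure D2:**
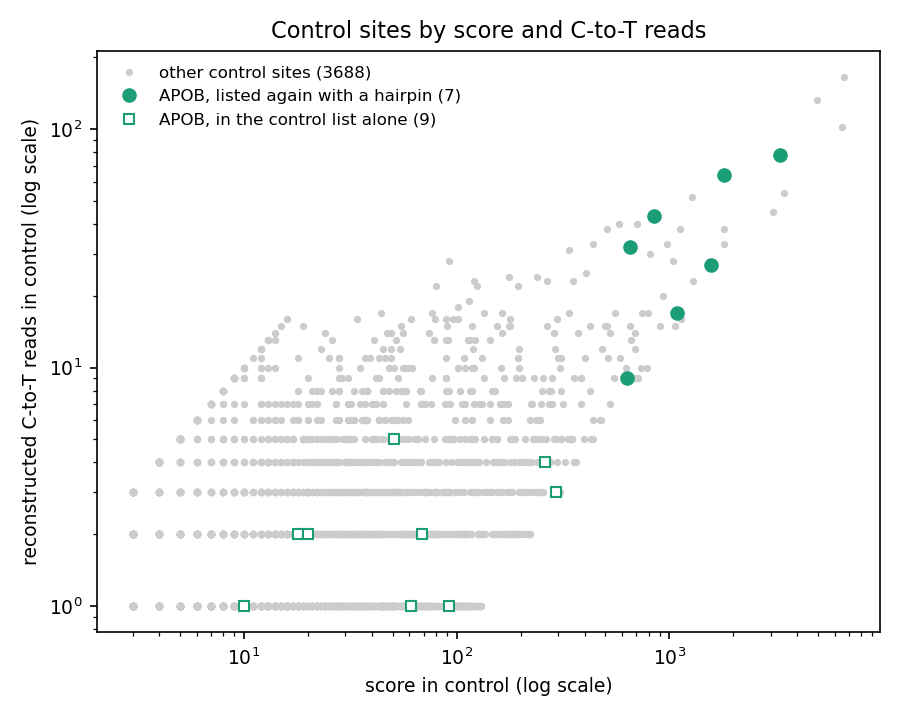
Score in control (horizontal axis, log scale) against reconstructed C-to-T reads in control (vertical axis, log scale) for control sites with a resolved number of reads. Filled circles are the 7 APOB sites listed again with a hairpin and open squares the 9 in control alone; grey points are other control sites. The filled circles all lie at 635 reads or more.

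Hairpin by hairpin, the deepest sites did not always recur. All 4 APOB sites with a control score of 1000 or more were listed with hairpin 1 (84.0% of all such control sites were), but 2 of the 4 with hairpin 2 (72.0% of all such sites). Outside APOB and chromosome M, 8 of 11 such sites (72.7%) were listed with hairpin 1 and 8 of 11 with hairpin 2. The deep APOB sites missing with hairpin 2 were 21230785, with 27 C-to-T reads of 1579 in control, and 21228739, with 17 of 1084. Their control shares of 1.71% and 1.57% were close to the background rate of the control list, and both were listed with hairpin 1. The site at 21226173, with 32 changed reads of 657 in control (4.87%), was missing with hairpin 1.

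At positions shared with control, the score was several-fold lower with each hairpin, with 1 exception. The site at 21224714 had 289 reads with hairpin 1, 291 with hairpin 2 and 3331 in control, which is 11.5-fold and 11.4-fold lower. The site at 21234077 had 216, 219 and 1816 reads, 8.41-fold and 8.29-fold lower. The site at 21233389 had 37, 44 and 852 reads and fell furthest, 23.0-fold and 19.4-fold. The hairpins thus gave nearly the same score at each of these positions: hairpin 2 over hairpin 1 was 1.01 to 1.19, where the median over the 119 positions in both hairpin lists was 1.70 (quartiles 1.11 to 2.64).

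The sites shared by hairpin 1 and control alone fell likewise. The site at 21230785 had 148 reads with hairpin 1 and 1579 in control, 10.7-fold lower. At 21230360 there were 92 and 635 reads, 6.90-fold lower, and at 21228739 there were 69 and 1084, 15.7-fold lower. With hairpin 1 all 6 shared APOB sites were at least 2-fold lower than control, as were 84.0% of all shared sites, and 0 were at least 2-fold higher (0.889% of all). The median at APOB was 11.1-fold lower, against 7.01-fold over all 225 shared sites (quartiles 3.36 to 13.1). Of those 225 sites, 108 had a control score under 100, while the shared APOB sites had 635 or more. A listed score is at least 3, so a shallow site has less room to fall. The part of depth in the larger fall at APOB was not tested.

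The exception was 21226173, which lay 1872 nt from the 3′ end of the interval and had 605 reads with hairpin 2 against 657 in control, 1.09-fold lower. It was the most deeply covered APOB site of hairpin 2 and ranked 13 in that list. With hairpin 2, 3 of 4 shared APOB sites were at least 2-fold lower, where 73.0% of all shared sites were, and 0 at least 2-fold higher (9.43% of all). The median was 9.62-fold lower at APOB and 4.93-fold lower over all 244 shared sites (quartiles 1.77 to 10.3). Here too many of the 244 were shallow, 139 with a control score under 100, while the shared APOB sites had 657 or more. Summed over the shared APOB sites, hairpin 2 held 1159 reads and control 6656, 5.74-fold lower; without 21226173 the sums were 554 and 5999, 10.8-fold lower. These folds are not scaled for library size, and a smaller library, less APOB RNA and less enrichment cannot be told apart.

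**Figure D3:**
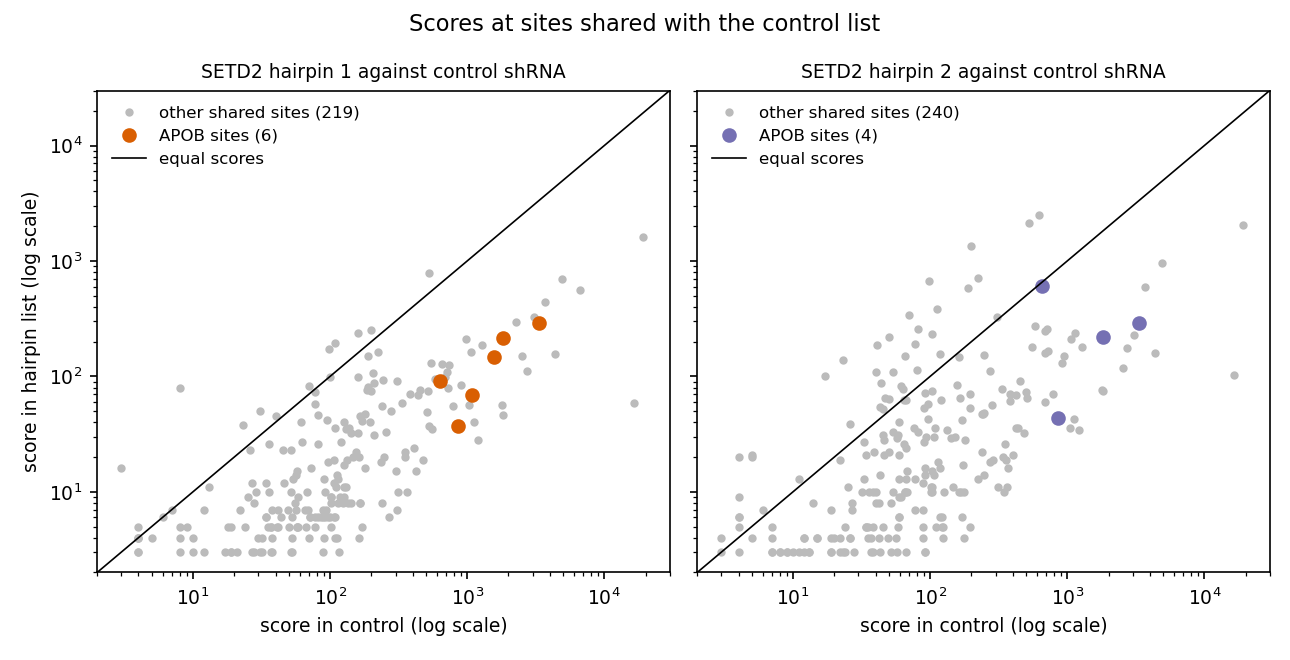
Score in the hairpin list (vertical axis, log scale) against score in control (horizontal axis, log scale) at sites shared with control, for hairpin 1 (left) and hairpin 2 (right), with APOB sites in colour and the line of equal scores. All APOB sites lie well below the line except the hairpin 2 site with 605 against 657 reads.

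When pooled, C-to-T shares at APOB were below those over all sites in each of the 3 lists. Pooled over APOB sites they were 2.70% with hairpin 1 (23 of 851 reads, interval 1.72 to 4.03), 1.78% with hairpin 2 (21 of 1178, 1.11 to 2.71) and 2.69% in control (291 of 10828, 2.39 to 3.01). Over all sites with a resolved number of changed reads the pooled shares were 4.42%, 3.09% and 5.84%. APOB sites were also deeper, with median scores of 120, 219 and 276.5 against 11, 15 and 14 over all sites. With few reads a low share is out of reach, because a single changed read already makes it high. The part of depth in the lower pooled shares at APOB was not tested. At single APOB sites the share ran from 1.35% to 4.17% with hairpin 1, from 0.992% to 5.26% with hairpin 2 and from 1.03% to 11.1% in control. The highest control shares stood on few reads: 2 of 18 at 21230976 (11.1%, interval 1.38 to 34.7), 2 of 20 at 21232178 (10.0%, 1.23 to 31.7), and 1 of 10 at 21228326 (10.0%, 0.253 to 44.5).

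The number of changed reads at each APOB site was set beside the background rate of its list. The binomial tail probability was under 0.05 at 1 of 6 sites with hairpin 1, 1 of 5 with hairpin 2 and 7 of 16 in control, where it was so at 32.7%, 44.8% and 49.9% of all resolved sites. The site at 21234077 was the one below 0.05 with either hairpin, with 9 of 216 reads (4.17%) and a tail probability of 0.00423 with hairpin 1 and 6 of 219 (2.74%) and 0.0242 with hairpin 2. In control it had 64 of 1816 (3.52%) and 5.34e-09. In control the lowest probability was 5.90e-11 at 21233389, with 43 of 852 reads (5.05%), followed by 21234077 and by 3.43e-08 at 21226173, with 32 of 657 (4.87%).

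At the other end, the share was at or under the rate of the list at 1 of 6 APOB sites with hairpin 1, 1 of 5 with hairpin 2 and 5 of 16 in control (9.55%, 7.69% and 7.72% of all resolved sites). In control these were 21228739, 21230360, 21231059, 21236106 and 21255420, with 17, 9, 4, 3 and 1 changed reads. The other 20 of the 27 entries had a share above the rate of their list. Shallow sites could not enter these counts, because with few reads a single changed read is already a share above the rate. The median score over all sites was 11 with hairpin 1, 15 with hairpin 2 and 14 in control, against 120, 219 and 276.5 at APOB. The part of depth in the APOB counts was not tested.

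A single changed read lay under 2 of 6 APOB sites with hairpin 1, 1 of 5 with hairpin 2 and 3 of 16 in control, beside 63.9%, 60.5% and 41.4% of all resolved sites; APOB sites were also deeper than most. The hairpin 2 site with a single changed read was 21242746, the APOB position absent from control, with 1 of 19 reads (5.26%, interval 0.133 to 26.0). Such positions were common in that list, 65.0% of whose sites were not in the control list.

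The share of changed reads was compared with a two-sided Fisher's exact test on changed and unchanged reads. It was run at shared positions with a resolved number of changed reads in both lists, 198 of 225 with hairpin 1 and 217 of 244 with hairpin 2. Benjamini-Hochberg adjustment ran over these positions for each hairpin. At 21226173 the share was lower with hairpin 2, at 0.992% (6 of 605 reads, interval 0.365 to 2.15), than in control, at 4.87% (32 of 657, 3.36 to 6.81). The difference was -3.88 percentage points and the odds ratio 0.196 (95% interval 0.0665 to 0.479; p = 4.34e-05, adjusted p = 0.00941, Fisher's exact test). Changed reads were 5.33-fold lower there, while unchanged reads numbered 599 with hairpin 2 and 625 in control. Over the other 3 shared APOB positions, hairpin 2 had 14 changed reads of 554 and control 185 of 5999. Changed reads thus fell at those positions too, together with total reads. What set 21226173 apart was that its unchanged reads hardly fell. This was the smallest p of all 217 positions tested with hairpin 2, of which 3 passed, 2 with a lower share (0.922%) and 1 with a higher share (0.461%). The hairpin 2 share at this site stood 0.988 times as high as the background rate of its list, and the control share 3.10 times as high as the control rate. The background rate was itself lower in the hairpin 2 list, at 1.00% against 1.57%, and its part in this difference was not tested. Both pooled lists are single values, and the test does not cover differences between replicates.

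At the other shared APOB positions the share did not differ past the threshold, with wide intervals. With hairpin 2 these were 21224714 at 2.06% against 2.34% (6 and 78 changed reads; odds ratio 0.878, 0.310 to 2.02), 21234077 at 2.74% against 3.52% (6 and 64; 0.771, 0.270 to 1.80) and 21233389 at 4.55% against 5.05% (2 and 43; 0.896, 0.102 to 3.65). Over the 4 shared positions the share pooled to 1.73% with hairpin 2 and 3.26% in control; without 21226173, it was 2.53% and 3.08%. Over all 217 tested positions it pooled to 2.86% with hairpin 2 and 3.94% in control. The share was lower with hairpin 2 at 4 of 4 APOB positions, 1 of which passed, and at 38.2% of all tested positions, many of them shallower. Nothing particular to APOB is read from these counts and pooled values.

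With hairpin 1, 0 of 6 APOB positions and 0 of all 198 tested passed Fisher's exact test after adjustment (0%), and 9 of the 198, of which 0 at APOB, had an unadjusted p under 0.05. The share at 21224714 was 2.77% with hairpin 1 and 2.34% in control (odds ratio 1.19, interval 0.490 to 2.49). At 21234077 it was 4.17% and 3.52% (1.19, 0.513 to 2.45), and at 21230360 it was 2.17% and 1.42% (1.54, 0.160 to 7.63). It was 1.35% and 1.71% at 21230785, 1.45% and 1.57% at 21228739, and 2.70% and 5.05% at 21233389, where 1 or 2 changed reads stood behind each hairpin 1 value. The value was thus higher with hairpin 1 at 3 positions and lower at 3 (73.7% and 25.3% of all tested positions). Pooled over the 6 the share was 2.70% with hairpin 1 and 2.56% in control, and over all 198 it was 4.17% and 3.39%. Since no site is listed without a changed read, the share has a floor at shallow positions.

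**Figure D4:**
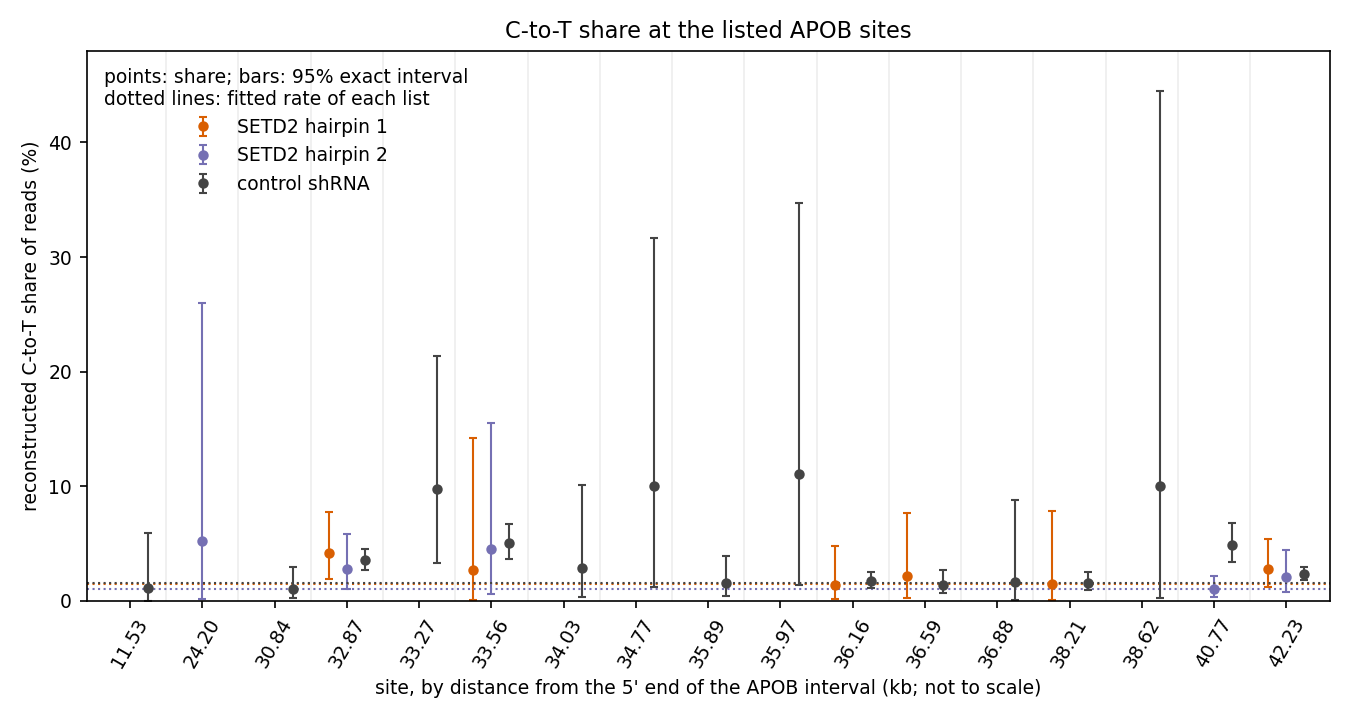
Reconstructed C-to-T share of reads (percent, vertical axis) with 95% exact intervals at the 17 APOB positions, ordered from the 5′ end (horizontal axis, kb, not to scale), for hairpin 1, hairpin 2 and control; dotted lines are the fitted rates of the lists. At the site second from the right, 21226173, the intervals of hairpin 2 (0.365 to 2.15) and control (3.36 to 6.81) do not overlap.

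Between the hairpins, hairpin 2 against hairpin 1, the share was 2.06% against 2.77% at 21224714, 2.74% against 4.17% at 21234077 and 4.55% against 2.70% at 21233389. Of the 102 positions resolved in both hairpin lists, 0 passed a two-sided Fisher's exact test after adjustment (0%) and 3 had an unadjusted p under 0.05; at APOB the smallest unadjusted p was 0.444. The site at 21226173 is not in the list of hairpin 1, so whether its fall in share differs between the hairpins was not tested.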

How the data were processed

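m6A-enriched RNA of 9 HepG2 samples, 3 per shRNA, was represented by 3 deposited lists, each assigned by the labels to all replicates of a group and treated as pooled. Per the submitters' processing notes, FastQC 0.11.5, cutadapt 1.13 and Bowtie 1.1.2 were used with build hg19; per the site names in the files, sites came from rbsSeeker. The labels and files give neither its version and filters nor the way of combining replicates. The deposited score is unscaled as far as the labels say; read totals per library were not used.

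C-to-T reads were reconstructed by fitting, per list, the rate at which binomial tail probabilities follow the running numbers. The calculation was tested on simulated lists ordered by that same tail probability. Such lists could not check whether the deposited score counts reads. A site counted as shared at the same position and strand. The sites described singly are those in several lists and, per list, the 5 with the highest score and the 3 with the most changed reads and highest changed share. Changed reads at shared sites were compared by two-sided Fisher's exact tests, adjusted by Benjamini-Hochberg for all shared, resolved sites of a hairpin (threshold 0.05); a fold of 2 was used for scores. The members, lists and tests were chosen with earlier results of these data known. As alternatives, a higher minimum score, wider matching, merged sites and lists without chromosome M were tried. Scripts ran in Python 3.11.15 with numpy 2.4.6, scipy 1.17.1, pandas 2.3.3 and matplotlib 3.10.9.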

Additional observations from a re-analysis of the deposited data

How the results depend on the processing

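No paired analysis was possible because each group has 1 pooled list, so replicate numbers carry no values; for the same reason no replicate could be left out. The numbers of APOB sites (6, 5 and 16) were the same at a minimum score of 5 or 10 and with sites within 10 nt merged. The numbers of control sites listed again (6 and 4) were the same at a minimum score of 5 or 10 and with matching within 10 or 50 nt. None of these settings could change the counts. The lowest APOB scores were 37 with hairpin 1, 19 with hairpin 2 and 10 in control, and the smallest gap between APOB positions was 83 nt. Without chromosome M, the share of the summed score at APOB was 5.02% with hairpin 1, 2.74% with hairpin 2 and 5.27% in control. With a minimum score of 10, APOB made up 2.34% of sites with hairpin 1, 1.19% with hairpin 2 and 0.702% in control, and 3.82%, 2.34% and 4.35% of the summed score. Divided by the median over all shared sites, the median score at shared APOB sites was 1.58-fold lower with hairpin 1 and 1.95-fold lower with hairpin 2. Many of all shared sites were shallower, 108 of 225 with hairpin 1 and 139 of 244 with hairpin 2 at a control score under 100. The division therefore does not adjust for depth. Without 21226173, a choice made after seeing the data, the hairpin 2 median was 11.4-fold lower before that division. In Fisher's exact test the lower share at 21226173 passed at an adjusted p of 0.00429 with 20 or more reads required in both lists. With rates fitted without chromosome M the adjusted p was 0.00907. Both settings left the reads at this site as they were and changed only the number of positions adjusted over, to 99 and 209. They are therefore no further support for the call. No APOB site had more than 9 changed reads with a hairpin, at the called position or the others, and the intervals of the odds ratios are wide.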
